A study of Mus musculus with 4 samples.

Results

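A set of fibroblasts from the mouse thoracic aorta that carried transcripts of Prg4 or Crabp2 was examined in single-cell RNA sequencing data. Cells were selected on their own counts of unique molecular identifiers (UMIs, each marking 1 captured transcript). A fibroblast-gated cell had at least 10 UMIs of Dcn and Lum together, at most 1 UMI of Myh11, and fewer than 10 UMIs of Lyz2, C1qa and C1qb together. A member had in addition at least 3 UMIs of Prg4 and Crabp2 together, and a comparison cell had 0. Of 38316 cells in 4 libraries, 5040 were fibroblast-gated, 723 were members and 3447 were comparison cells, and the 870 fibroblast-gated cells with 1 or 2 UMIs were left between them. Each library pooled the aortas of 3 mice. WT saline and KO saline came from wild-type and Sting-KO mice given saline and a normal diet, and WT AngII and KO AngII came from wild-type and Sting-KO mice on a high fat diet for 5 weeks with angiotensin II (AngII) infused for 7 days. AngII constricts arteries and raises blood pressure, and in this design it cannot be told apart from the diet. Strain, sex, age and the altered part of the Sting gene were not given in the sources used here. Each group being 1 library, differences between groups or cell classes were not tested, and every interval is a 95% interval that covers counting error only.

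Adventitial fibroblasts occupy the outer coat of the artery, make its collagen and proteoglycans, and take on activated and inflammatory states when the wall is stressed. Prg4 encodes lubricin, a mucin-like proteoglycan known from the lining fibroblasts of joints, where it coats and lubricates surfaces. Crabp2 encodes a small binding protein that carries retinoic acid to its nuclear receptors, and Timp1 encodes a secreted inhibitor of matrix metalloproteinases. STING is the adaptor through which cytosolic DNA sensing leads to interferon production.

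The libraries held 8495 to 12053 cells and 60064038 to 94698727 UMIs, and the AngII libraries were deeper, with medians of 9938 (WT) and 9294 (KO) UMIs per cell against 5888 and 6071 with saline. Tmem173, which encodes STING, gave 20.4 CPM (UMIs of a gene scaled to a class total of 1e+06) in WT AngII members and 11.9 in KO AngII members, 12.3 and 12.7 CPM in comparison cells of the same libraries, and 7.03 and 6.10 CPM over all their cells. It was not depleted in the libraries labelled KO, and a 3′ tag outside the altered part of a gene would check nothing, so KO stands below for the library labelled Sting-KO. Pairs of libraries shared 92 to 148 cell barcodes, 1.08% to 1.74% of the smaller library, and no barcode belonged to members in 2 libraries. Doublets were not removed.

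Members were a larger share of fibroblast-gated cells in the AngII libraries. They numbered 30 of 1012 fibroblast-gated cells in WT saline (2.96%, exact binomial interval 2.01 to 4.21) and 263 of 1672 in WT AngII (15.7%, 14.0 to 17.6). In the KO libraries they numbered 10 of 505 with saline (1.98%, 0.954 to 3.61) and 420 of 1851 with AngII (22.7%, 20.8 to 24.7). No smooth muscle-gated cell reached 3 UMIs in any library (0 of 4748, 3333, 5657 and 2738, which by a floor of 3 cells allows shares of up to 0.0632%, 0.0900%, 0.0530% and 0.110%, with exact upper limits of 0.0777%, 0.111%, 0.0652% and 0.135%), and 1 phagocyte-gated cell did so in each AngII library (of 568 and 451). Both of these gates allowed at most 1 UMI of Dcn and Lum together, so cells carrying more fibroblast RNA were left out of them beforehand. A gate on raw UMIs admits deeper cells more readily. The median fibroblast-gated cell had 3601.5 (WT) and 3878 (KO) UMIs with saline and 9064 and 11760 with AngII. After every fibroblast-gated cell was thinned to 3000 UMIs the shares were 1.06% (0.427 to 2.17) and 4.67% (3.70 to 5.79) in WT saline and WT AngII, and 0.901% (0.186 to 2.61) and 5.67% (4.66 to 6.83) in the KO pair, with 352, 0, 172 and 0 shallower cells left out in that order. At 5000 UMIs they were 5.58% (3.00 to 9.35), 8.62% (7.24 to 10.2), 2.82% (0.923 to 6.47) and 10.6% (9.25 to 12.2), but 779 and 328 saline cells fell out, and the intervals of the WT pair overlapped while those of the KO pair did not.

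**Figure D1:**
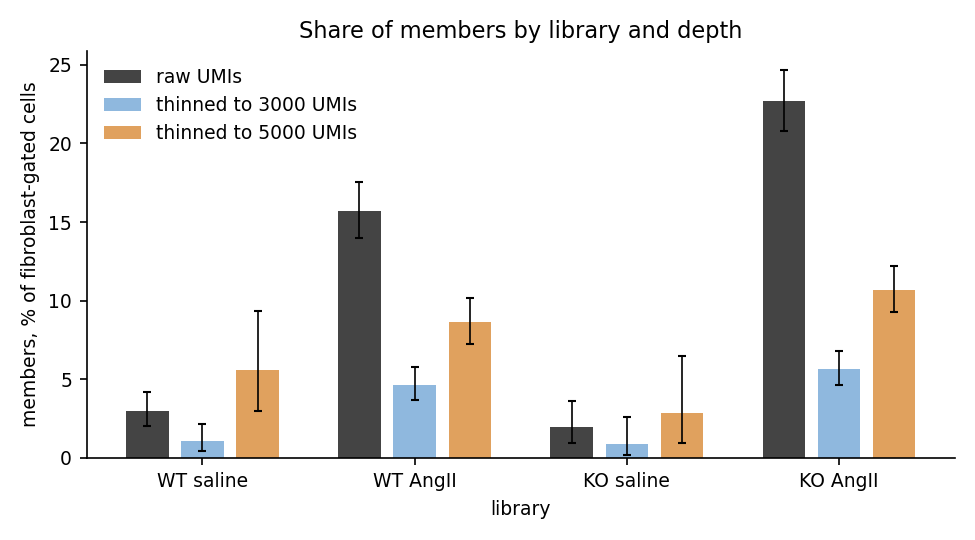
Bars give members as a percentage of fibroblast-gated cells in each library on raw UMIs and after thinning every cell to 3000 or 5000 UMIs, and lines are 95% exact binomial intervals for counting error. The raw shares of 15.7% and 22.7% in the AngII libraries came down to 4.67% and 5.67% at 3000 UMIs, where the saline libraries had 1.06% and 0.901%.

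Prg4 and Crabp2 were then taken apart. At 3000 UMIs per cell, Prg4 was detected in 12.3% (WT saline) and 16.5% (WT AngII) of fibroblast-gated cells and in 5.41% and 16.2% in the KO pair. Crabp2 was detected in 0.152% and 5.50% of the WT cells and in 0.901% and 10.6% of the KO cells. Smooth muscle-gated cells, which should lack both genes, had a UMI of either in 0.106% to 0.657% of cells at the same 3000 UMIs. That gate allowed at most 1 UMI of Dcn and Lum together, so these shares do not measure the free RNA in fibroblast-gated cells. In WT the Prg4 shares with saline and with AngII had overlapping intervals (9.87 to 15.02 and 14.8 to 18.4), and those of Crabp2 did not (0.00384 to 0.841 and 4.46 to 6.71). In the KO pair neither those of Prg4 (3.23 to 8.41 and 14.5 to 17.9) nor those of Crabp2 (0.186 to 2.61 and 9.27 to 12.1) overlapped. Timp1 was detected in 25.2% and 70.9% of the WT cells and in 35.7% and 87.9% of the KO cells.

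Just inside and just outside the threshold, levels were close for some genes and apart for others. Timp1 stood at 1407 CPM in WT AngII cells with 2 UMIs of Prg4 and Crabp2 and at 1546 CPM in cells with 3, and in KO AngII at 3488 and 3473 CPM. Sfrp2, which encodes a secreted Wnt-binding protein, stood at 1420 and 1386 CPM in WT AngII and at 654 and 416 CPM in KO AngII. Procr, the protein C receptor, stood at 65.5 and 110 CPM in WT AngII and at 30.5 and 51.6 CPM in KO AngII. Mest, an imprinted gene, stood in KO AngII at 68.3 and 4.52 CPM, on 132 and 7 UMIs. Saa3, an acute phase protein, stood at 92.7 and 2.76 CPM in WT AngII and at 124 and 21.3 CPM in KO AngII. The WT AngII values were on 109 and 2 UMIs, and both drops ran against its higher level over all members. Its other WT AngII levels were 43.9 CPM at 0 UMIs, 307 at 1, 487 at 4 to 9 and 228 at 10 or more. Across the whole range Sfrp2 stepped down from 2866 CPM in cells with 0 UMIs to 313 CPM in cells with 10 or more in WT AngII, and from 1295 to 158 CPM in KO AngII. Timp1 went from 757 to 2615 CPM and from 2049 to 5750 CPM. Median depth moved in the same order, from 8180 to 17199 UMIs in WT AngII and from 9732 to 19140 in KO AngII, and its part in these steps was not tested. The cells with 10 or more UMIs numbered 72 and 143.

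**Figure D2:**
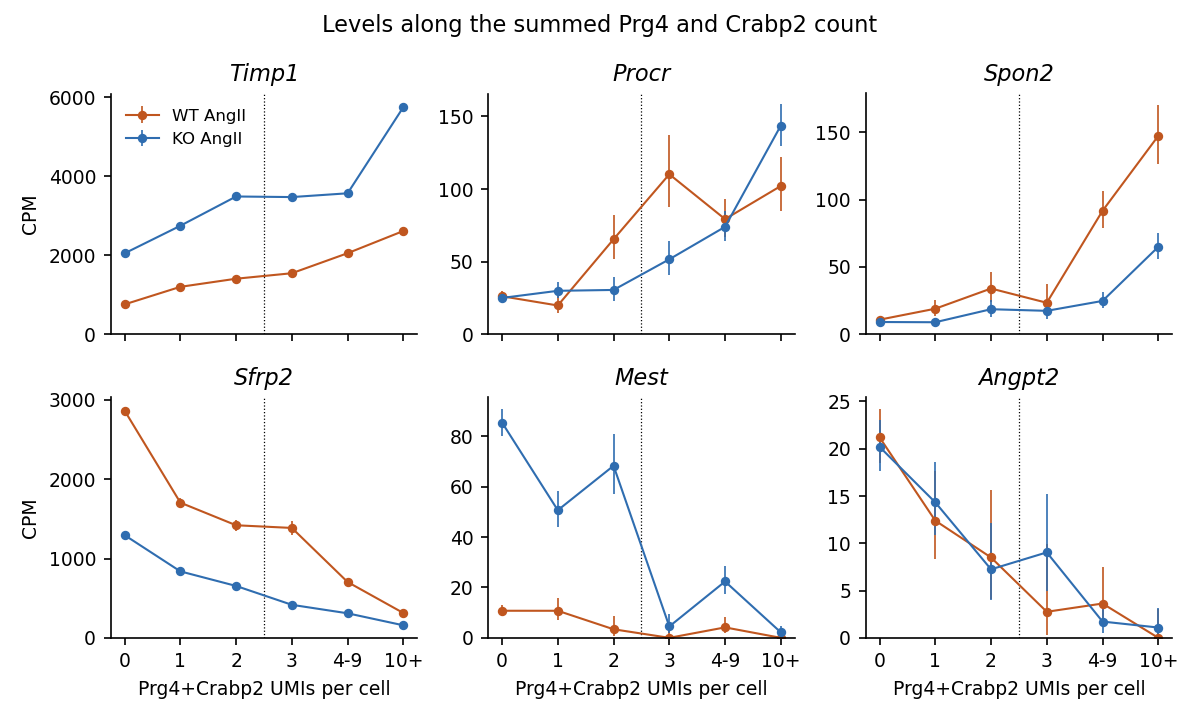
Each panel plots the summed level of a gene in CPM against the number of Prg4 and Crabp2 UMIs per cell in WT AngII and KO AngII, with 95% Poisson intervals, and the dotted line marks the member threshold. Timp1 and Sfrp2 change in steps on both sides of the line rather than only across it, with Sfrp2 going from 2866 to 313 CPM in WT AngII.

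Members were selected for Dcn and Lum and for few UMIs of Myh11, Lyz2, C1qa and C1qb. By markers outside the rule they were fibroblasts too, which that selection favoured. Col1a1 (6316 and 6675 CPM in WT AngII and KO AngII members), Col1a2 (9234 and 8918), Col3a1 (12707 and 10435) and Dpt (865 and 502) were abundant, and Pdgfra was at 98.7 and 56.2 CPM. None of the 7 fibroblast markers outside the rule was 2-fold apart from comparison cells in either AngII library. However, 6 were lower in sign in both, with list medians of -0.22 and -0.35. The 7 summed to 31160 and 27891 CPM in members and 41294 and 34898.5 CPM in comparison cells. Endothelial markers summed to 33.9 and 9.99 CPM in members and 29.0 and 20.7 CPM in comparison cells, with Vwf, Kdr and Tie1 at 0 in WT AngII and Kdr, Tie1 and Cldn5 at 0 in KO AngII. Phagocyte markers outside the rule summed to 35.7 and 69.6 CPM in members and 34.3 and 43.8 CPM in comparison cells, against 12299 and 11449 CPM in phagocyte-gated cells, and Ptprc, which marks all leukocytes, was at 0.258 and 0.139 CPM in members. Csf1r, the receptor of the macrophage growth factor, was at 10.9 against 5.28 and 57.7 against 27.3 CPM, and Adgre1 was at 0 in KO AngII members. Cells with 2 or more UMIs of markers of other classes were left out in an alternative given below. Whether they were doublets was not tested. The mesothelial list, of cells that line the body cavities, summed to 12.4 and 2.91 CPM, with Krt8, Krt7 and Gpm6a at 0 in WT AngII and Msln, Upk3b, Krt8, Krt18 and Gpm6a at 0 in KO AngII. Smooth muscle markers outside the rule summed to 1247 and 1722 CPM in members and 1363 and 2643 CPM in comparison cells. The cartilage genes Col2a1 (0.258 and 0 CPM) and Hapln1 (0 and 0 CPM) were at or near 0, and Matn3, Chad and the ligament gene Cilp2 were lower than in comparison cells. Chad and Cilp2 rested on few cells. A single comparison cell held 40.1% (WT AngII) and 55.2% (KO AngII) of the comparison UMIs of Chad. For Cilp2 a single cell held 50% of them in KO AngII, and its sign reversed in alternatives given below. Of the other genes of the joint lining list, Cd55, a shield against complement attack, was higher in members, while Clic5 (0.258 and 0.694 CPM), Tspan15 (0.517 and 0.139) and Col22a1 (0.258 and 0.139) were near 0. The 8 genes of that list outside the rule summed to 571 and 577 CPM in members and 803 and 606 CPM in comparison cells. Of 5 measured, 2 were higher in sign in both libraries, 1 was lower in both and 2 had opposite signs.

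The members differed from comparison cells of the same AngII library in a small fraction of the measured genes. Of 9272 genes with at least 30 UMIs in the higher group of both AngII libraries, 63 (0.679%) were at least 2-fold higher in members in both and 136 (1.47%) at least 2-fold lower. The cells were chosen by counts of the same transcriptomes, so these values describe the members and support nothing. Members were deeper than comparison cells, with medians of 14008 against 8180 UMIs in WT AngII and 16780 against 9732 in KO AngII. Restricted to cells between the lower and upper quartile of the members' totals (131 members and 341 comparison cells in WT AngII, 211 and 290 in KO AngII), which narrowed the medians to 14008 against 11960 UMIs and 16757 against 15699 UMIs without making them equal, 34 genes were higher and 43 lower, of which 26 and 31 were among the 63 and 136. When cells were thinned to 5000 UMIs before they were chosen and compared, 33 were higher and 133 lower, of which 22 and 45 were among them. Cells with 2 or more UMIs of Pecam1, Cdh5, Ptprc, Csf1r, Tyrobp, Des or Cnn1 made up 86 of 263 and 211 of 420 members and 164 of 1087 and 285 of 1013 comparison cells. Without them 40 genes were higher, 34 of them among the 63, and 91 were lower, 79 of them among the 136.

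Timp1 also named the set, with earlier results of these data known, so its level describes the members and is no independent check. Timp1 was not counted in the rule and was higher in members than in comparison cells of both AngII libraries. With saline it reached 553 CPM in WT members and 114 CPM in comparison cells, and 807 and 208 CPM in KO, but 1 cell held 78.8% of the 104 WT member UMIs and 1 cell 60.5% of the 81 KO ones. Without these cells saline members were at 122 CPM in WT, close to comparison cells, and at 405 CPM in KO. With AngII it reached 2134 and 757 CPM in WT and 4382 and 2049 CPM in KO. The log2 differences were 2.28 and 1.96 with saline and 1.50 and 1.10 with AngII, with counting intervals of 1.44 to 1.55 in WT AngII and 1.07 to 1.12 in KO AngII. With totals restricted as above they were 1.66 in WT AngII and 0.68 in KO AngII, the second below 2-fold. Timp1 was detected in 257 of 263 WT AngII members and in 419 of 420 KO AngII members, against 86.0% and 93.1% of comparison cells. Its median per cell was 10.8 per 10000 UMIs in WT AngII members and 3.77 in comparison cells, and 28.1 and 10.2 in KO AngII. Levels within members were spread widely, with quartiles of 5.65 and 19.5 per 10000 UMIs in WT AngII and of 13.8 and 51.7 in KO AngII, and the comparison cells' upper quartiles of 7.59 and 22.3 lay above the members' lower ones.

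Several of the most elevated genes encode cell surface proteins. Procr, the receptor of the anticoagulant protein C, was at 92.3 CPM in members against 26.2 CPM in comparison cells in WT AngII and at 95.9 against 25.0 CPM in KO AngII. It was detected in 39.9% against 11.4% of cells in WT AngII and in 43.6% against 14.4% in KO AngII. Slc39a2, a zinc importer, was at 10.1 against 1.29 CPM and at 7.77 against 0.983 CPM, and Chl1, a neural cell adhesion molecule, at 9.56 against 1.10 and 5.13 against 1.16 CPM. Parm1, a mucin-like membrane protein, was at 9.30 against 2.29 and 8.60 against 2.50 CPM. Chl1 was not 2-fold in KO AngII with totals restricted (0.57 on the log2 scale) or with cells gated at 5000 UMIs (0.81), against 2.14 as given.

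Secreted and intracellular products made up the rest of the named higher genes. Spon2, a secreted matrix protein, was at 96.4 against 10.9 CPM in WT AngII and at 38.6 against 9.12 CPM in KO AngII, with 72 and 57 members detected. AA467197 was at 64.6 against 15.5 CPM and at 30.4 against 3.49 CPM, Stmn4, a microtubule regulator, at 21.2 against 4.48 and 11.1 against 2.95 CPM, and Slurp1, a small secreted protein, at 11.9 against 0.896 and 4.30 against 1.16 CPM. Aldh1a2, which makes retinoic acid, was at 11.1 against 3.19 CPM and at 4.58 against 1.25 CPM, on 43 and 33 UMIs in 18 and 13 members. In WT AngII its log2 difference was 0.93 with totals restricted. By the gene that had admitted the cell, 24 and 25 of those UMIs were in members admitted by Prg4 without Crabp2 and 1 and 4 in members admitted by Crabp2 without Prg4.

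The inflammatory genes with the largest differences rested on few cells. Cxcl5, a neutrophil chemokine, was at 32.6 against 1.69 CPM in WT AngII and at 75.3 against 4.47 CPM in KO AngII. A single KO AngII member held 77.2% of the library's 543 member UMIs of Cxcl5, and without it the level was 17.3 CPM; in WT AngII all 126 UMIs came from 6 members. Saa3, an acute phase apolipoprotein, was at 315 against 43.9 CPM and at 105 against 12.6 CPM, in 19 and 13 members, and 10 cells held 99.3% and 99.6% of its member UMIs. Lcn2, an iron-scavenging defence protein, was at 56.1 against 9.16 CPM and at 7.35 against 2.86 CPM. Ccl11, a chemokine for eosinophils, was at 42.1 against 13.4 and 38.7 against 11.6 CPM, in 36 and 41 members. Of the 17 eligible genes of the inflammatory fibroblast list these 4 were higher and 0 were lower, against 0.679% and 1.47% of all 9272 genes, and the list's median log2 difference was 0.89 in WT AngII and 0.20 in KO AngII, against -0.02 and -0.05 over all 9272 genes. Ccl2, a monocyte chemokine, was at 1383 against 365 CPM in WT AngII and at 1393 against 976 CPM in KO AngII, which was not 2-fold in the second library. Il6, a fever cytokine, had opposite signs, at 107 against 103 CPM and at 163 against 250 CPM.

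**Figure D3:**
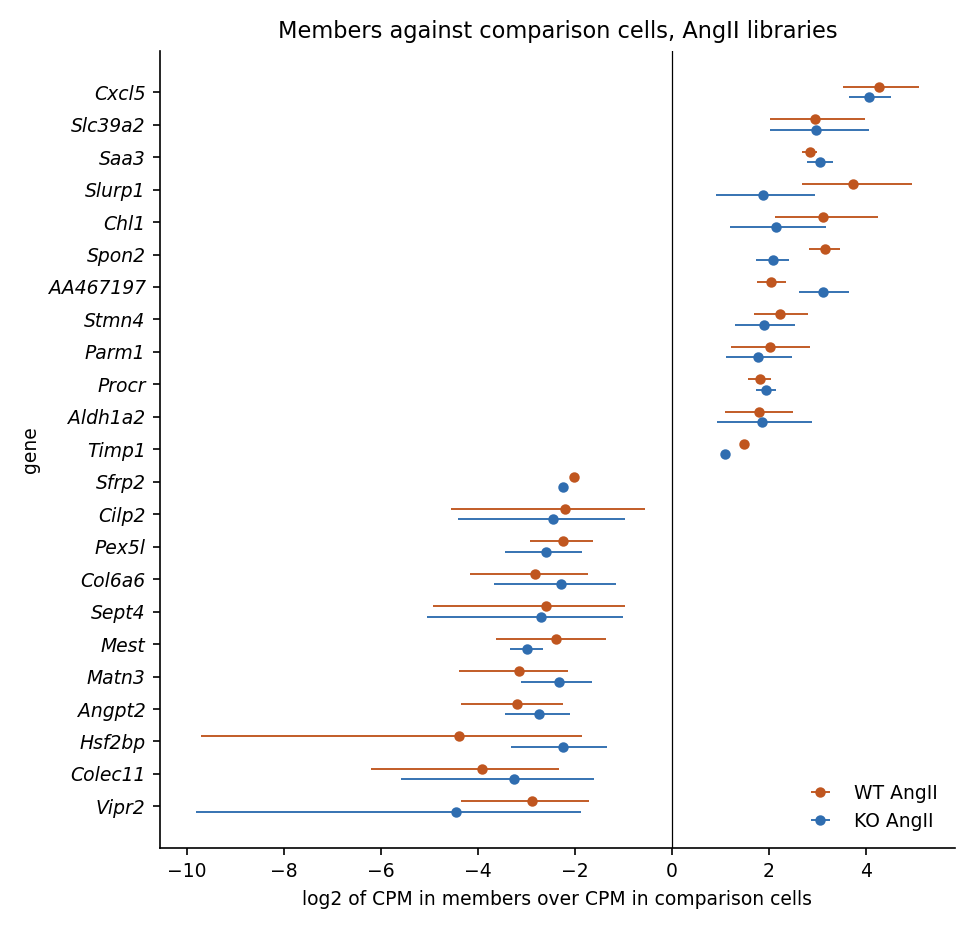
Points give the log2 ratio of summed CPM in members over comparison cells for Timp1 and the named genes in WT AngII and KO AngII, with 95% exact conditional counting intervals as lines. The widest intervals belong to Vipr2 and Hsf2bp, with 1 member UMI in KO AngII and WT AngII respectively.

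Genes lower in members included matrix proteins, growth factors and receptors. Sfrp2 was the most abundant of those named here, at 709 CPM in members against 2866 in comparison cells in WT AngII and at 275 against 1295 CPM in KO AngII. Its log2 difference was -2.01 (-2.07 to -1.96) and -2.24 (-2.31 to -2.17), and it was detected in 69.6% against 84.4% and in 54.8% against 70.6% of cells. Mest, an imprinted gene of growing mesenchyme, was at 2.07 against 10.8 CPM and at 10.8 against 85.5 CPM. Angpt2, a ligand of the vascular receptor Tie2, was at 2.33 against 21.2 CPM and at 3.05 against 20.2 CPM. The remaining named genes were Matn3, a cartilage matrilin (2.07 against 18.4 and 2.64 against 13.2 CPM), Col6a6, a collagen VI chain (1.81 against 12.7 and 0.971 against 4.74), Pex5l (5.94 against 28.2 and 2.22 against 13.4), Hsf2bp, Vipr2, Colec11, Sept4 and Cilp2. The last 4 were each on 6 or fewer member UMIs in both AngII libraries, and Colec11, Sept4 and Cilp2 did not keep their direction in every alternative. With cells gated at 5000 UMIs, Col6a6 (-0.77) and Vipr2 (-0.53) in KO AngII and Hsf2bp in WT AngII (-0.09) were not 2-fold lower.

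Of 12 measured hyaluronan and surface coat genes 9 were higher in sign in both AngII libraries and 3 were lower in both, against 3000 higher in sign in both of all 9272 genes. The list's medians were 0.76 and 0.60, against -0.02 and -0.05, and 2 of 12 were called higher, against 0.679% of all genes. Vcan, the large proteoglycan that binds hyaluronan, was at 348 CPM in members against 91.5 CPM in WT AngII and at 267 against 120 CPM in KO AngII, and was detected in 71.9% against 40.6% and in 89.3% against 58.2% of cells. Cd55 was at 195 against 55.0 and 78.0 against 36.0 CPM. The hyaluronan synthase Has1 was at 67.2 against 33.4 and 149 against 79.2 CPM, Ugdh, which makes its sugar precursor, at 555 against 230 and 481 against 255 CPM, and Cd44, the hyaluronan receptor, at 240 against 105 and 279 against 176 CPM. Has1, Ugdh and Cd44 each passed 2-fold in WT AngII and not in KO AngII.

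Other metalloproteinase inhibitors did not follow Timp1. Timp2 was at 1347 against 1866 CPM in WT AngII and 1027 against 1408 CPM in KO AngII, and Timp3 at 1459 against 1672 and 1407 against 1690 CPM. The interstitial collagenase Mmp13 was at 1.81 against 0.697 and 9.16 against 3.04 CPM, and the stromelysin Mmp3 at 159 against 217 and 93.9 against 165 CPM. Of 14 eligible genes in that list Timp1 alone was called, beside 0.679% called higher and 1.47% lower of all 9272 genes. The list's medians were -0.04 and -0.06.

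In the retinoid pathway, the carrier Crabp2 itself being part of the rule, Aldh1a2 was called higher and Rbp4, the plasma retinol carrier, lower, of 17 eligible genes. Of all 9272 genes 0.679% were called higher and 1.47% lower. With totals restricted, Aldh1a2 was not 2-fold in WT AngII (0.93 on the log2 scale). Rbp4 was at 75.5 against 210 CPM in WT AngII and at 121 against 337 CPM in KO AngII. Rdh10, which makes retinal, was at 35.7 against 14.5 and 40.1 against 23.0 CPM, 2-fold in WT AngII only. The nuclear receptors Rara (27.4 against 29.1 and 21.4 against 35.3 CPM) and Rarg (34.6 against 39.8 and 36.1 against 42.7) were less than 2-fold apart. The list's medians were -0.09 and -0.24.

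The resting adventitial list was mixed, with medians of 0.65 and 0.38. Pi16, a marker of adventitial progenitor-like fibroblasts, was at 3091 against 1379 CPM in WT AngII and 1658 against 883 CPM in KO AngII. Dpp4, another marker of such cells, was called higher at 16.0 against 7.77 and 5.55 against 2.59 CPM, and Inmt, a methyltransferase, was called lower at 4.14 against 14.2 and 1.94 against 5.36 CPM. Ly6c1 (1146 against 527 and 398 against 232 CPM) and Cd248 (374 against 159 and 246 against 129 CPM) were 2-fold higher in WT AngII only. Cytl1, a small cytokine-like protein, was at 199 against 53.5 CPM in WT AngII and 29.1 against 29.9 CPM in KO AngII.

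No gene of the fibrosis list was called, of 19 eligible, and its medians were 0.09 and 0.03. Cthrc1, a secreted marker of activated fibroblasts, was at 2023 against 1487 CPM in WT AngII and 1580 against 978 CPM in KO AngII, and Postn, a matricellular protein, at 1346 against 1303 and 989 against 837 CPM. The crosslinking enzyme gene Loxl2 was at 269 against 103 and 219 against 119 CPM. Among small proteoglycans and matricellular genes, Fbln2 was called higher (706 against 345 and 525 against 234 CPM), and Chad and Fbln7 were called lower (5.43 against 16.1 and 0.416 against 5.19 CPM for Chad, 18.3 against 58.9 and 12.1 against 40.9 CPM for Fbln7). Chad was detected in few cells, 1.90% of members against 1.75% of comparison cells in WT AngII and 0.714% against 1.38% in KO AngII. Of the TGF-beta list's 16 eligible genes, Inhba, which encodes the activin A subunit, was higher (61.3 against 23.3 and 92.5 against 43.1 CPM) and the ligand Bmp4 was lower (33.3 against 74.0 and 19.4 against 60.7 CPM). Of the Wnt and growth factor list's 19, Dkk2 and Igfbp5 were higher and Sfrp2 lower. Beside the counts of these lists, 0.679% of all 9272 genes were called higher and 1.47% lower. Igfbp5, which binds insulin-like growth factors, was at 1718 against 645 CPM and 803 against 347 CPM. The tissue factor gene F3, which starts coagulation, was lower (29.5 against 93.5 and 47.9 against 134 CPM).

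Immediate early genes, which respond within minutes to stress and to tissue dissociation, were lower in sign in members for 15 of 16 genes in both AngII libraries, with medians of -0.62 and -0.59, and none was called. Of all 9272 genes 3740 were lower in sign in both, 0.679% were called higher and 1.47% were called lower. Fos was at 1204 against 2485 CPM in WT AngII and 914 against 1531 CPM in KO AngII, and Egr1 at 541 against 1065 and 472 against 905 CPM. In the saline libraries Fos had the other sign, with log2 differences of 0.68 in WT and 0.05 in KO. The median mitochondrial share was 2.68% in WT AngII members against 3.05% in comparison cells and 2.29% against 2.75% in KO AngII, beside the difference in depth given above, and the part of either in these levels was not tested.

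Few members came from the saline libraries, and their sums of 187918 (WT) and 100364 (KO) UMIs limit what can be read. In WT saline 29 of the 30 members were there through Prg4 alone, and Crabp2 gave 2 UMIs in 1 cell. In KO saline the 37 Crabp2 UMIs were in 2 of the 10 cells. Saa3, Chl1 and Aldh1a2 gave 0 UMIs in both, which by the floor of 3 UMIs allows up to 16.0 CPM in WT saline and 29.9 CPM in KO saline, with exact upper limits of 19.6 and 36.8 CPM. Sfrp2 was lower in saline members too, at 388 against 1297 CPM in WT and 29.9 against 1319 CPM in KO, the last on 3 UMIs. Procr was at 90.5 CPM in members against 206 CPM in comparison cells in WT saline and at 229 against 83.7 CPM in KO saline, on 17 and 23 UMIs, so its sign in WT saline was the reverse of that in the AngII libraries. Cthrc1, abundant in AngII members, gave 1 and 6 UMIs.

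Members overlapped with other fibroblast states. With cells thinned to 3000 UMIs, 61.2% of WT AngII members (161 of 263) and 69.0% of KO AngII members (290 of 420) had at least 2 UMIs of Cthrc1, against 54.1% and 48.8% of comparison cells. For Pi16 the shares were 75.7% and 61.2% of members against 61.9% and 46.0%. For Saa3 and Mmp3 together they were 11.4% of members against 11.2% in WT AngII, and in KO AngII 5.48% (3.503 to 8.10) against 12.04% (10.1 to 14.2). For Cxcl1 and Ccl7 together they were 43.7% and 63.3% against 31.3% and 58.3%. For Angptl7 and Inmt they were 1.52% and 0.952% against 4.14% and 1.58%, and for Isg15 and Ifit3 11.0% and 0.476% against 6.90% and 0.296%. Transcripts of Cthrc1 and of Pi16 were thus each found in most members at that depth.

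Members divided by which gene had admitted them. Prg4-led members had at least 3 UMIs of Prg4 and none of Crabp2, Crabp2-led members the reverse, and the rest had both. They numbered 157, 34 and 72 in WT AngII and 163, 88 and 169 in KO AngII. Prg4-led cells were thus 59.7% (53.5 to 65.7) of WT AngII members and 38.8% (34.1 to 43.7) of KO AngII members. Their median depth was lower, 11457 UMIs against 17620 for Crabp2-led cells in WT AngII and 13528 against 17727 in KO AngII. At 3000 UMIs per cell, Crabp2 was detected in 29 of 276 WT AngII fibroblast-gated cells with Prg4 (10.5%) and 63 of 1396 without it (4.51%), and in 48 of 299 (16.1%) and 149 of 1552 (9.60%) in KO AngII. Most of the thinned cells with either transcript had only 1 of them.

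Timp1 was nearly alike in the Prg4-led and Crabp2-led cells, at 1801 and 1823 CPM in WT AngII and 3170 and 3841 CPM in KO AngII, and was highest in cells with both, at 2774 and 5552 CPM. Sfrp2 was likewise lower in each of the 3 groups than in comparison cells, by log2 differences of -1.59 (Prg4-led), -1.87 (Crabp2-led) and -3.18 (both) in WT AngII and -1.46, -2.99 and -2.81 in KO AngII. Other genes separated the groups. Of 4426 genes with enough UMIs, 120 were at least 2-fold higher in Prg4-led cells in both AngII libraries and 17 in Crabp2-led cells, and because Crabp2-led cells held fewer UMIs a gene needed a higher level there to be counted.

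The named genes higher in Prg4-led cells included secreted proteins of varied roles. Spp1, which encodes the matrix cytokine osteopontin, was at 832 CPM in Prg4-led against 65.6 CPM in Crabp2-led cells in WT AngII and at 377 against 33.9 CPM in KO AngII, although 1 cell held 48.8% of its WT AngII member UMIs. Lcn2 gave 177 UMIs (90.1 CPM) against 0 in WT AngII and 31 against 1 in KO AngII. Hp, the haemoglobin scavenger haptoglobin, gave 364 against 0 and 77 against 5 UMIs, but in KO AngII its 32.4 CPM in Prg4-led cells lay below the 44.0 CPM of comparison cells. Saa3 was at 489 against 1.68 CPM in WT AngII and at 76.1 against 125 CPM in KO AngII, so its order was reversed. Cxcl5 gave 122 against 0 and 74 against 1. In KO AngII, Cxcl5 was at 146 CPM in cells with both transcripts, where the cell with most of its UMIs lay. Dmkn, a secreted epidermal protein, gave 92 against 2 and 33 against 1, in no more than 10 cells of either library, and CR974586.5 gave 85 against 1 and 59 against 3.

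Crabp2-led cells carried Spon2 at 242 CPM against 38.2 CPM in Prg4-led cells in WT AngII and at 54.9 against 9.68 CPM in KO AngII. Pthlh, the parathyroid hormone-related peptide, was at 303 against 25.5 and 68.5 against 21.9 CPM. Tppp3, a tubulin-binding protein that marks tendon sheath progenitors, was at 1707 against 324 and 476 against 138 CPM. Col5a3, a collagen V chain (103 against 16.3 and 56.1 against 15.6 CPM), Cav1, the caveolae protein (286 against 74.4 and 249 against 89.2 CPM), and Itm2a, a membrane protein (192 against 56.5 and 249 against 66.9 CPM), completed the named genes. Comparison cells had Itm2a at 345 CPM in WT AngII, above the Crabp2-led cells, and at 178 CPM in KO AngII, below them. Stmn4, named above, differed from comparison cells by log2 0.77 and 0.65 in Prg4-led cells and by 4.20 and 2.33 in Crabp2-led cells. Cells with both transcripts lay between the other groups for Spon2, Pthlh and Tppp3 in both libraries.

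**Figure D4:**
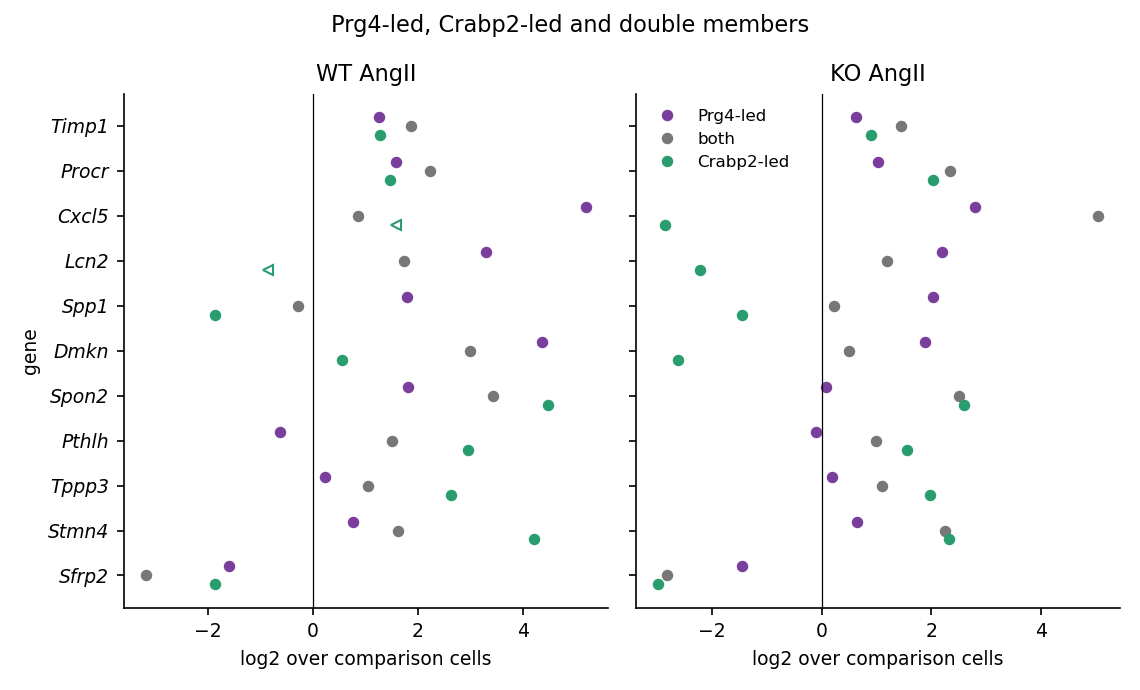
Points give the log2 ratio of CPM over comparison cells of the same library for selected genes in Prg4-led, Crabp2-led and double members of WT AngII and KO AngII, and open triangles mark groups with 0 UMIs, drawn at the upper limit of 3 UMIs. Timp1, Procr and Sfrp2 lie on the same side of 0 in all 3 groups, while Lcn2 and Spp1 stand high in Prg4-led and Spon2, Pthlh and Tppp3 in Crabp2-led cells.

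KO AngII members were then compared with WT AngII members, to describe how the cells differed between the genotype labels under infusion. Of 7371 genes with at least 50 UMIs in the higher library, 116 (1.57%) were at least 2-fold higher in KO AngII and 281 (3.81%) at least 2-fold lower. With edgeR's TMM scaling, which shifts all members' log2 values by 0.11, the split was 169 higher and 205 lower, and with median-of-ratios size factors (a shift of 0.12) it was 176 and 201. Among members with totals in the middle range of both libraries 100 genes were higher and 144 lower. Members of the 2 libraries differed in makeup (more Crabp2 in KO AngII, as above) and in median depth, and the difference has no replicate check. Prg4 was at 577 CPM in WT AngII members and 351 CPM in KO AngII members, and Crabp2 at 221 and 308 CPM. Timp1 was higher in KO AngII by a log2 difference of 1.04 in members (2134 and 4382 CPM) and of 1.44 in comparison cells (757 and 2049 CPM).

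Interferon-stimulated genes were the clearest group, and all 16 eligible genes of that list were at least 2-fold lower in KO AngII members, with a median log2 difference of -2.74, against 0.02 over all 7371 genes. The same genes had a median of -3.32 in comparison cells, so the difference was not confined to members. Isg15, a ubiquitin-like antiviral protein, was at 194 CPM in WT AngII members and 13.3 CPM in KO AngII members. Ifit3, which binds foreign RNA with its relatives, was at 62.8 and 4.58 CPM, Irf7, the transcription factor that amplifies interferon genes, at 89.7 and 4.58 CPM, Usp18, which removes Isg15 from proteins, at 29.98 and 1.53 CPM, and Oasl2, of the 2′-5′ oligoadenylate synthetase family, at 42.1 and 3.19 CPM. In the saline libraries Isg15 gave 10 UMIs in 4 of 30 WT members and 11 UMIs in 1 of 10 KO members, too few to compare. Ifit1 (114 and 16.6 CPM in members, 59.6 and 1.52 CPM in comparison cells) and Oas1a (16.8 and 2.77, 6.97 and 0.268) differed more in comparison cells than in members. In KO AngII members 66.7% of the 33 Ifit3 UMIs and 37.5% of the 96 Isg15 UMIs were in a single cell. The class I molecules H2-Q6 (13.2 and 0.139 CPM) and H2-Q7 (17.6 and 0.832 CPM) and the interferon-induced chemokine Cxcl9 (34.9 and 1.80 CPM) were lower too, and reads of H2-Q6 and H2-Q7 can be split between near-identical copies.

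The promoters of 3 of these genes are shown because the genes were lower together, each as the 250 bases before the RefSeq start of the gene (GRCm38.p6). Capitals mark GAAANNGAAA, the core of the interferon-stimulated response element, on either strand and with overlapping matches joined. Isg15 lies on the minus strand at chr4:156200819-156201068, with 3 matches, Ifit1 on the plus strand at chr19:34640639-34640888, with 2, and Ifit3 on the plus strand at chr19:34583279-34583528, with 2.
Isg15: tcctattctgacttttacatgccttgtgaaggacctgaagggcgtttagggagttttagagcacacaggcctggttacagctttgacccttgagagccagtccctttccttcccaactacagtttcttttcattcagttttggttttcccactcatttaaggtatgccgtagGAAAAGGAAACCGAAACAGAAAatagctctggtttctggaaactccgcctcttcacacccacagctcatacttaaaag
Ifit1: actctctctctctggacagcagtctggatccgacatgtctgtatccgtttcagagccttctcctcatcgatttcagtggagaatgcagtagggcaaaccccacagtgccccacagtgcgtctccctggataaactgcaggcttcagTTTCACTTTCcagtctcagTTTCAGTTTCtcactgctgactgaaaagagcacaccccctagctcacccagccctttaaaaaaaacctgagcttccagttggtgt
Ifit3: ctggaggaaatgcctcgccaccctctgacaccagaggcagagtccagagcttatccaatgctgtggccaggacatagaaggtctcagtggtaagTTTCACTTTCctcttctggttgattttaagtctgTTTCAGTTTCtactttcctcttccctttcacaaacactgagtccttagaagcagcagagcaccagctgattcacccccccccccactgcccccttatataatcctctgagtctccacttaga
Of the 16 lower list genes 11 had a window in the table, and 7 of these held the motif, against 2.98% of all 32851 windows of this length. The list was fixed as interferon-stimulated genes, and all its eligible genes were lower. The share therefore describes the list and says nothing about the difference between the libraries. Irf7, Oasl2, Ifih1 and Xaf1 had no match in the window, which says only that these letters are not in it. Usp18, Rtp4, Ifi27l2a and Zbp1 were among the list genes without a window, so they were not searched for the motif.

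Genes higher in KO AngII members had varied roles. Aqp2, a water channel, was at 12.4 CPM in WT AngII members and 160 CPM in KO AngII members, with 16 and 88 cells detected, and at 10.7 and 51.0 CPM in comparison cells. Cd24a, a surface glycoprotein, was at 1.81 and 35.8 CPM, Cxcl14, a chemokine, at 9.82 and 79.2 CPM, and Esm1, a secreted proteoglycan, at 25.3 and 141 CPM. Fdps, an enzyme of the mevalonate pathway, was at 30.2 and 147 CPM, Cryab, a small heat shock protein, at 686 and 2113 CPM, and Fst, the activin antagonist follistatin, at 177 and 550 CPM. Cx3cr1, the fractalkine receptor, was at 1.81 and 13.2 CPM, and 1 cell held 50.5% of the latter's 95 UMIs. The log2 difference between libraries was larger in members than in comparison cells for Aqp2 (3.69 and 2.26) and Cd24a (4.31 and 2.65), and smaller for Cxcl14 (3.01 and 4.31), and none of these contrasts was tested. For Esm1 the values were 2.48 and 1.17, but 1.24 in Prg4-led members and 5.41 in members with Crabp2. Such shifts were not confined to Esm1. Among the gene values followed between libraries, 15 moved beyond their counting interval in Prg4-led members and 2 did not. Among members with Crabp2, 8 moved and 9 did not. With totals in the middle range of both libraries, 14 moved and 3 did not.

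Of 15 eligible genes in the resting adventitial list 8 were lower in KO AngII members and 0 higher, against 3.81% lower and 1.57% higher of all 7371 genes, with a median of -1.06 in members and -0.68 in comparison cells. They were Dpp4, Cd34, Ly6c1, Ly6a, Sema3c, Cytl1, Hsd11b1 and Apod. Ly6a, the stem cell antigen, was at 2736 CPM in WT AngII members and 1164 CPM in KO AngII members, and Cytl1 at 199 and 29.1 CPM. The inflammatory list was divided, with Cxcl5, Fst, Lif and Has1 higher and Saa3, Lcn2, C3 and Cxcl10 lower of 17 eligible. For Cxcl5 that direction rested on the single cell noted above, without which KO AngII members were at 17.3 CPM against 32.6 CPM in WT AngII. C3, the central complement component, was at 283 and 108 CPM, and Lif, a cytokine of the interleukin-6 family, at 18.6 and 64.8 CPM. Of the fibrosis list's 19 genes, Tnc, a matrix glycoprotein of injured tissue, was higher (62.0 and 139 CPM) and Spp1 lower (499 and 181 CPM). A single WT AngII member held 48.8% of that library's member UMIs of Spp1. Without that cell WT AngII members were at 257 CPM, less than 2-fold above the 181 CPM of KO AngII. In KO AngII 1 member held 30.9%, and without it the level was 125 CPM.

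**Figure D5:**
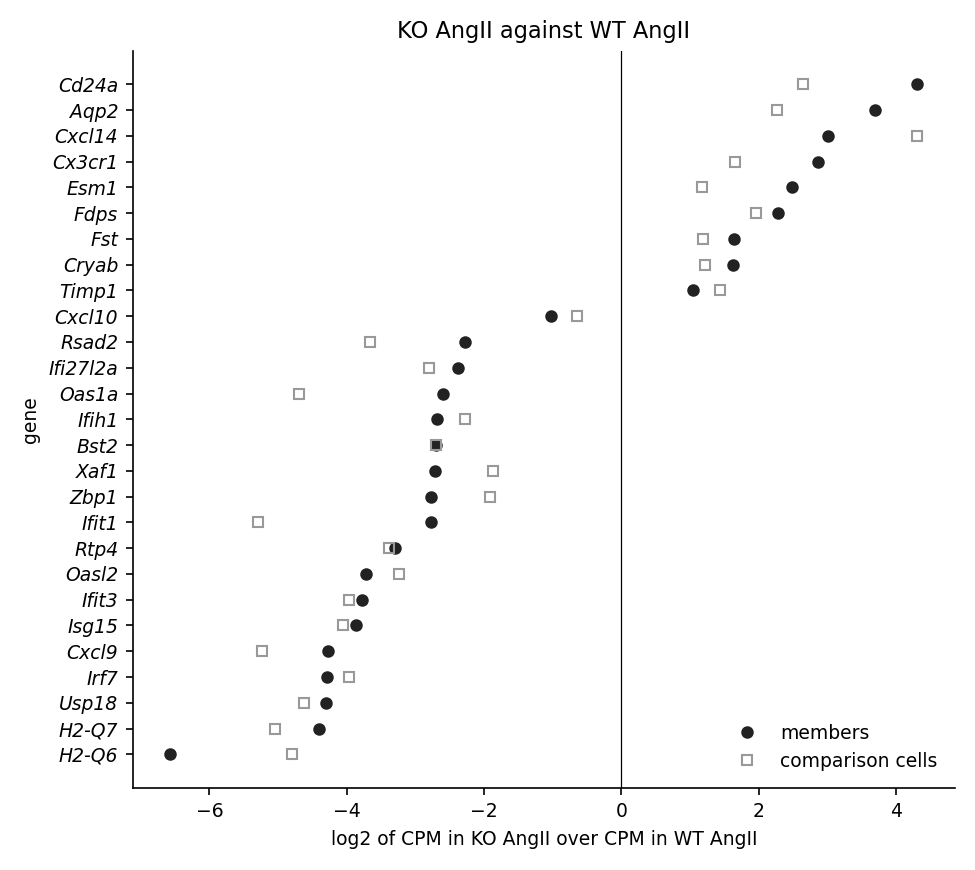
Filled circles give the log2 ratio of CPM in KO AngII over WT AngII in members and open squares the same in comparison cells, for the named genes, Timp1 and interferon-stimulated genes called lower. Members and comparison cells lie on the same side of 0 for every gene plotted, with Isg15 at -3.87 and -4.05 and Aqp2 at 3.69 and 2.26.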

How the data were processed

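Single cells of 4 libraries were read from the deposited tables of raw UMI counts, 17524 genes by cells, which the authors made with Cell Ranger and the genome build mm10, per the submitters' processing notes; their version, annotation and cell filters were not given. No library held a cell with more than 4911 to 4998 detected genes. Groups came from the titles. Members and gene lists were chosen with earlier results of these data known. Counts were summed over the cells of a class and library and divided by the class total (CPM). Log2 ratios carry exact conditional 95% intervals, CPM exact Poisson and shares exact binomial (Clopper-Pearson) ones, all for counting error only. In members against comparison cells, a gene was eligible with at least 30 UMIs in the higher class of both AngII libraries and if its CPM in that class was no less than 0.1 of its highest CPM among members, comparison, smooth muscle-gated (Myh11 at least 10) or phagocyte-gated cells (Lyz2, C1qa and C1qb at least 10), and called at 2-fold or more in both. Between libraries 50 UMIs were needed. Smooth muscle-gated and phagocyte-gated cells also had at most 1 UMI of Dcn and Lum together. The first had at most 1 UMI of Lyz2, C1qa and C1qb together, and the second at most 1 of Myh11. A class at 0 was set to a floor of 3 UMIs. The 8 genes of the rule were left out of counts. Named were the 12 higher and 12 lower genes with the largest smaller ratio, and up to 8 per list. Between libraries they were the 8 each way whose interval end nearest 0 lay farthest from it. For Prg4-led against Crabp2-led cells (at least 20 cells a group) 6 each way were named. Markers at 0, other called genes of a list, and Pdgfra, Ptprc, Clic5, Tspan15, Col22a1, Postn, Rara, Rarg, Timp3, C3 and Hspa5 fall outside that rule and were named after their values were seen. Mitochondrial, ribosomal and predicted genes were not named, and a few genes the rule names are not reported here. The 31 lists, the rule's genes among them, gave counts and medians over genes with 30 UMIs. Thinning drew UMIs without replacement (seed 7). TMM factors came from edgeR 4.0.16, used for scaling only, and the rest from Python 3.11.15, numpy 2.4.6 and scipy 1.17.1. The comparison functions were tested on simulated data. Alternatives were other thresholds, depths, scalings, UMI minimums and the removal of cells with 2 or more UMIs of other classes.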

Additional observations from a re-analysis of the deposited data

Results flagged for a closer look

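Ankrd1, a nuclear protein induced by mechanical load and by YAP, differed in opposite directions in the 2 AngII libraries. In WT AngII it was higher in members than in comparison cells by a log2 difference of 1.28 (43 and 46 UMIs, 11.1 and 4.58 CPM). In KO AngII it was lower in members, at -2.99 (19 and 235 UMIs, 2.64 and 21.0 CPM). The difference between the libraries was not tested. A single WT AngII member held 81.4% of the member UMIs, and without that cell the level was 2.08 CPM, below the 4.58 CPM of comparison cells.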

How the results depend on the processing

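No paired analysis was possible because each group is 1 library, and no replicate could be left out. Thinning to 3000 UMIs gave member shares of 1.06% and 4.67% in WT saline and WT AngII and 0.901% and 5.67% in the KO pair. Thinning to 5000 UMIs, chosen after seeing the data, gave 5.58%, 8.62% and, in KO AngII, 10.6%. A threshold of 2 UMIs gave 5.53%, 21.5% and 29.8% in WT saline, WT AngII and KO AngII, and a threshold of 5 gave 1.09%, 9.75% and 14.7%. The 63 genes higher in members became 34 with totals restricted, 34 at 100 UMIs, 206 at 1 UMI, 40 without cells holding UMIs of other classes and 33 when gated at 5000 UMIs, an alternative also chosen after seeing the data. The 136 lower genes became 43 with totals restricted, 69 at 100 UMIs and 256 at 1 UMI. When gated at 5000 UMIs, Colec11 (0.026) and Sept4 (0.10) in KO AngII and Cilp2 in WT AngII (0.49) reversed on the log2 scale, as did Cilp2 in KO AngII (0.38) with totals restricted. The 116 genes higher in KO AngII members became 176 by median of ratios, 76 at 100 UMIs and 194 at 20. The 281 lower became 144 with totals restricted, 175 at 100 UMIs, 544 at 20, 145 in Prg4-led members and 167 in members with Crabp2, the last pair chosen after seeing the data. A higher UMI minimum leaves fewer genes tested and the subsets fewer cells; otherwise the cause was not tested. The 30 and 10 saline members gave few UMIs.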

Other observations

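No gene of the energy use, protein folding and division lists was called in members against comparison cells. Of all 9272 genes only 0.679% were called higher and 1.47% lower, so lists this short need not hold any. Over all these genes 3000 were higher and 3740 lower in sign in both AngII libraries, with medians of -0.02 and -0.05. In the glycolysis and hypoxia list 10 of 15 measured genes were higher in sign in members of both AngII libraries and 2 were lower, with medians of 0.46 in WT AngII and 0.27 in KO AngII, and none of 15 was called. Eno1, a glycolytic enolase, was at 293 against 159 CPM in WT AngII and 336 against 261 CPM in KO AngII, and Slc16a3, the lactate exporter, at 27.4 against 13.1 and 20.7 against 12.2 CPM, 2-fold in WT AngII only. In the unfolded protein response list 12 of 15 genes were higher in sign in both, with medians of 0.16 and 0.25 and none called. Hspa5, the chaperone of the endoplasmic reticulum, was at 861 against 798.5 and 915 against 776 CPM. Of 14 eligible cell cycle genes none was called, with medians of 0.29 and 0.03, and Mki67, the proliferation antigen, was at 8.27 against 8.96 and 9.57 against 13.3 CPM.

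Among genes of the valve, pericyte and tendon lists, Thbs4, a thrombospondin of tendon, was at 41.4 CPM in members against 24.0 CPM in WT AngII and 45.5 against 10.5 CPM in KO AngII, 2-fold only in the second. Tnmd, tenomodulin, went the other way in WT AngII (53.5 against 107 CPM) and was at 55.3 against 46.0 CPM in KO AngII. The pericyte marker Rgs5 was at 26.4 against 126 and 32.7 against 78.0 CPM, and Notch3, a mural cell receptor, was called lower at 3.10 against 9.56 and 2.64 against 5.27 CPM. Of 20 eligible transcription factor and Hox genes none was called in members against comparison cells. Of all 9272 genes 0.679% were called higher and 1.47% lower, so a list this short need not hold any.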
